A study of Gallus gallus with 6 samples.

Results

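Ion channel genes were examined in the brain of the chick embryo (Gallus gallus) at stage 29, reached after 6 to 6.5 days of incubation. The genes were those whose only symbol in the array's annotation begins with KCN, SCN, CACN, HCN, CLCN, TRPC, TRPM or TRPV, with KCNV2 left out, and each was read from its brightest probe set. This gave 127 genes, with 268 probe sets, out of 13008 genes on the array. Their levels were compared between 3 pools of male brains and 3 pools of female brains to ask which channel genes exceeded background and whether any differed between the sexes. Each pool held 5 to 8 embryos sexed genetically and was put on 1 Affymetrix chicken array. The labels name no strain or treatment, and whole brains were used, so fewer cells of a type and less RNA per cell cannot be told apart. Values are log2 signals, on which a difference of 1 is a doubling, and signals of different probe sets do not rank genes by abundance.

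Ion channels are membrane pores that let selected ions down their gradients. Sodium and calcium channels opened by voltage depolarise a neuron, calcium entry triggers transmitter release, and potassium channels bring the membrane back to rest. Pore subunits carry the current, while accessory subunits set where, when and how fast the pore opens. In the embryonic brain, channel genes are switched on as neurons mature, and early electrical activity shapes the growth and connections of these cells.

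The prefixes also admitted genes that form no pore. SCNM1 encodes a splicing factor named for its effect on a sodium channel in mice, and TRPC4AP a protein that binds TRPC4, and both were kept apart as other genes. Accessory genes, and the CLC family of chloride channels and transporters, were also counted among the channel genes. Of the 127 genes 123 were autosomal in the RefSeq annotation, 2 were Z-linked, and KCNU1 and KCNE1 were not matched to it.

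Most channel genes gave a signal above background. Background was read from 689 probe sets made for viruses or other non-chicken sequences, and a gene counted as above it where its mean over the 6 pools exceeded their 95th percentile, 4.21. By this rule 92 of 127 channel genes (72.4%) were above background, against 81.5% of the 13008 genes. Both sexes had means above the limit for 90 genes, the male mean alone for KCNQ1 and KCNK18, and neither for 35. The genes nearest to the limit were KCNQ1 and KCNK18, each at 4.21, and KCNK17 at 4.30 above it, with KCNIP2 at 4.20, TRPM3 at 4.02 and SCNN1B at 3.98 below. In 83 genes every pool exceeded the limit of its own array (65.4%, against 77.7% of all genes), in 34 no pool did, and in 10 some pools did. These counts rest on the brightest probe set. Of 75 channel genes with over 1 probe set, 39 had at least 2 above background.

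**Figure D1:**
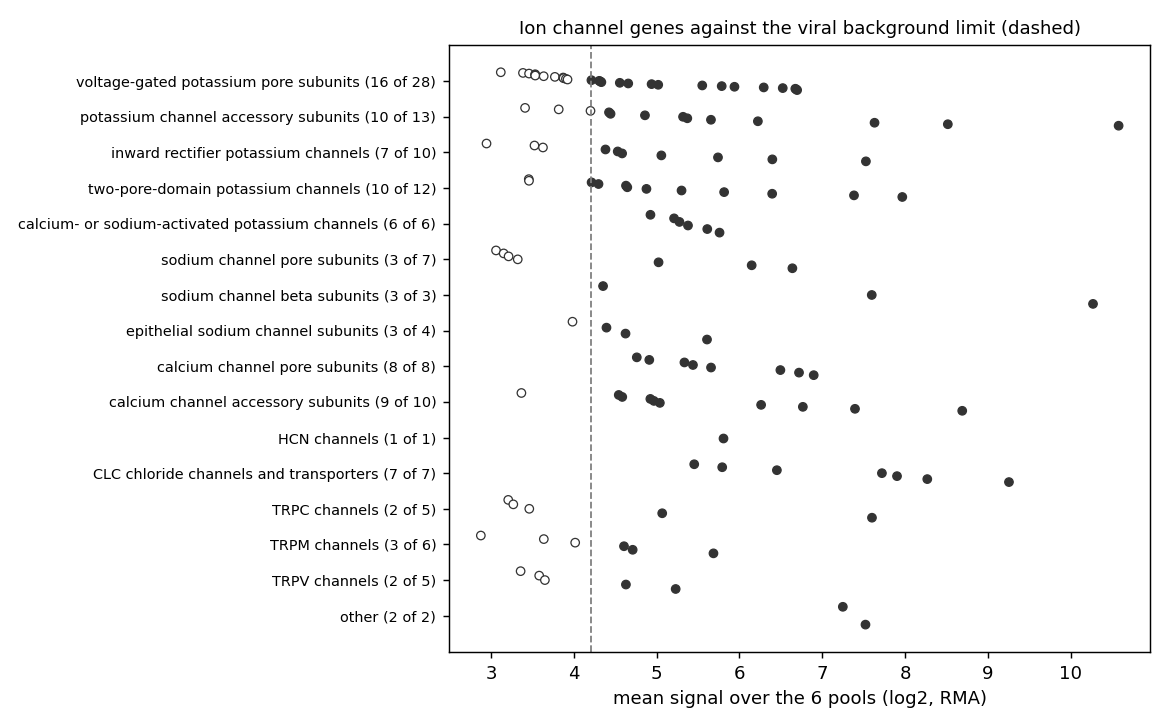
Mean signal over the 6 pools (log2, horizontal axis) of the 127 ion channel genes, 1 point a gene, by family, with filled points above the viral limit of 4.21 (dashed line). The 8 calcium channel pore subunits and the 7 CLC genes all lie right of the line, while 4 of 7 sodium channel pore subunits lie left of it.

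Most calcium channel genes were detected by their brightest probe sets. All 8 pore subunits among the genes examined were above background: CACNA1B, CACNA1C, CACNA1D, CACNA1E, CACNA1G, CACNA1H, CACNA1I and CACNA1S. They span the high-voltage L, N and R types and the low-voltage T type. Of 10 accessory genes 9 were above it, among them the alpha2delta genes CACNA2D1, CACNA2D2 and CACNA2D3 and the beta genes CACNB2 and CACNB4. CACNG2, known in mammals as stargazin, a carrier of AMPA receptors, was the exception at 3.24 to 3.53 in male pools and 3.22 to 3.44 in female pools. At a stricter limit of 4.98, the viral 99th percentile, CACNA1C, CACNA1D, CACNA2D3, CACNB2, CACNB4 and CACNG1 no longer counted as above background. Several detected genes also had probe sets below 4.21. Those above it were 1 of 5 for CACNB2, 1 of 4 for CACNA1S, 1 of 3 for CACNA2D3, 1 of 2 for CACNB4 and for CACNG3, and 3 of 6 for CACNA1C.

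Sodium channel pore genes were detected only in part. SCN2A, SCN8A and SCN4A were above background, while SCN1A, SCN3A, SCN9A and SCN11A lay between 2.79 and 3.61 in every pool. SCN8A, whose channel gathers at the axon initial segment, had 6.57, 6.36 and 6.88 in male pools and 6.60, 6.78 and 6.65 in female pools. All 3 beta subunits (SCN2B, SCN3B and SCN4B) were above background, as were the epithelial sodium channel subunits SCNN1A, SCNN1D and SCNN1G. SCN3B, a beta subunit prominent in embryonic neurons of mammals, had 10.28, 10.27 and 10.44 in male pools and 10.19, 10.16 and 10.28 in female pools. The ranges of the sexes overlapped for both SCN8A and SCN3B. At the stricter limit of 4.98, SCN4B, SCNN1A and SCNN1D no longer counted as above background.

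Among voltage-gated potassium pore genes 16 of 28 were above background. They included the Shaker-type genes KCNA1, KCNA2, KCNA4 and KCNA5, the Shaw-type KCNC1 and KCNC2, the A-type KCND2 and KCND3, and the M-current gene KCNQ3. The silent subunits KCNF1, KCNG1, KCNG2, KCNS1 and KCNS2, which pass current only with a partner, were also above it, as was KCNH7 of the ERG group. The other KCNH genes examined (KCNH1, KCNH4, KCNH5, KCNH6 and KCNH8) were below it, with KCNA3, KCNA10, KCNG3, KCNG4, KCNQ5, KCNS3 and KCNV1. The accessory genes gave 10 of 13 above background, among them KCNAB1 and KCNAB2, beta subunits of Shaker-type channels, and KCNIP1 and KCNIP4, calcium-binding partners of A-type channels, while KCNE2, KCNE3 and KCNIP2 were below it. KCNAB1 had 10.61, 10.36 and 10.56 in male pools and 10.58, 10.68 and 10.68 in female pools, so the pools of the sexes overlapped. KCNA1, KCNF1 and KCNQ3 were near the limit, at 4.32, 4.31 and 4.33. In each, 5 pools exceeded their own array limit, and only 1 of several probe sets was above background. At the stricter limit of 4.98, KCNA1, KCNA4, KCNA5, KCNF1, KCNH7, KCNQ1, KCNQ3, KCNE1, KCNE4 and KCNMB2 no longer counted as above background.

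The other potassium channel groups set the resting potential or respond to ions and G proteins. All 6 genes grouped by symbol prefix as calcium- or sodium-activated (KCNMA1, KCNN1, KCNN2, KCNT1, KCNT2 and KCNU1) were above background. Of the tandem pore-domain leak channels 10 of 12 were above it, with KCNK13 and KCNK16 below. Of the inward rectifiers 7 of 10 were above it, with KCNJ1, KCNJ4 and KCNJ16 below. The detected rectifiers included KCNJ3, KCNJ5 and KCNJ6, whose subunits assemble into channels opened by G proteins. At the stricter limit of 4.98, KCNN2, KCNJ6, KCNJ12, KCNJ15, KCNK4, KCNK12, KCNK15, KCNK17 and KCNK18 no longer counted as above background.

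The 7 CLC genes were all above background. CLCN6, a chloride and proton exchanger of late endosomes in mammalian neurons, had 9.19, 9.10 and 9.21 in male pools and 9.19, 9.30 and 9.54 in female pools. HCN4, a pacemaker channel and the only HCN gene among the members, had 5.85, 5.74 and 5.96 in male pools and 5.73, 5.80 and 5.71 in female pools. In both genes the ranges of the sexes overlapped. Of 16 TRP channels 7 were above background: TRPC1, TRPC4, TRPM1, TRPM2, TRPM7, TRPV2 and TRPV4. The TRPC5, TRPC6, TRPC7, TRPM3, TRPM5, TRPV3 and TRPV6 genes were below it. Genes of channels known from sensory neurons, the capsaicin receptor TRPV1 and the cold receptor TRPM8, were also below it, at 3.26 to 3.37 and 3.66 to 3.71 in male pools and 3.34 to 3.42 and 3.54 to 3.61 in female pools. At the stricter limit of 4.98, TRPM1, TRPM7 and TRPV4 no longer counted as above background. Only 1 of 3 TRPM1 probe sets was above the limit of 4.21.

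No channel gene passed the test of the sexes. With limma and Benjamini-Hochberg adjustment over 37693 chicken probe sets, 0 of the 127 genes were higher and 0 lower in males at the threshold of 0.05, while over all 13008 genes 0.815% were higher and 0.108% lower. At an unadjusted p under 0.05 there were 1 channel gene higher in males (0.787%, against 7.20% of all genes) and 3 lower (2.36%, against 5.45% of all genes). All male pools exceeded all female pools in 6 channel genes (4.72%, against 12.0% of all genes) and fell short of them in 5 (3.94%, against 7.06% of all genes), so neither count exceeded the share over all genes. With arrays centred on their autosomal median these counts were 10 (7.87%, against 16.1% of all genes) and 3 (2.36%, against 4.84% of all genes). The smallest adjusted p was 0.127.

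The differences were small as well as uncalled. Over the 92 genes above background the median male minus female difference was -0.01, with quartiles of -0.11 and 0.07, against 0.01 over 9984 autosomal genes above background, whose quartiles were -0.10 and 0.10. It was above 0 for 39 genes and below 0 for 53. The sign of this median changed with the scaling, to 0.02 on centred arrays, and without female pool 2, to 0.01. In 75 of the 92 genes the 95% confidence interval of the difference lay within 0.5 log2 units of 0 on both sides, and in 88 within 1. Over all 10603 genes above background it did so in 8317 and 10294, so these counts do not set channel genes apart. Among channel genes the exceptions at 1 were SCN2A, CACNA2D1, KCNJ3 and KCNK3. The intervals of these 4 reached past a doubling or a halving on 1 side.

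**Figure D2:**
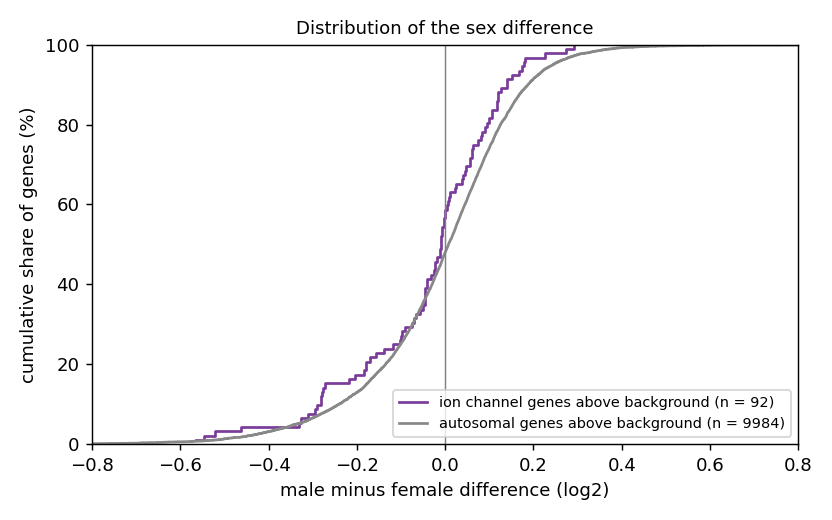
Cumulative share of genes (vertical axis, percent) by male minus female difference (log2, horizontal axis), for the 92 ion channel genes and the 9984 autosomal genes above background. The medians are -0.01 for channel genes and 0.01 for autosomal genes, and the channel genes end at 0.29 on the positive side.

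By family, the median difference of the genes above background ran from -0.07 for sodium channel pore subunits to 0.14 for TRPM channels. The CLC genes had 6 of 7 differences below 0 (-0.20 to 0.06), calcium channel accessory genes 7 of 9 (-0.56 to 0.07) and voltage-gated potassium pore genes 11 of 16 (-0.55 to 0.29). All 3 TRPM genes lay above 0 by their brightest probe sets (0.09 to 0.17), but a second TRPM7 probe set above background gave -0.21. A second CLCN4 probe set above background gave 0.07, against -0.20 for the brightest. The tandem pore-domain leak channels had 6 differences above 0 and 4 below, and the inward rectifiers 4 and 3. Over all 10603 genes above background 53.4% of differences lay above 0. No gene of any family passed, with a smallest limma adjusted p of 0.589 in the CLC genes, 0.307 in the calcium channel accessory genes and 0.657 in the TRPM genes.

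KCNA5 gave the smallest p of all channel genes. It encodes a delayed rectifier known from mammalian atrial and smooth muscle, and its 1 probe set had 4.39, 4.22 and 4.55 in male pools and 4.98, 4.77 and 5.04 in female pools. Every male pool lay below every female pool, and the lowest male pool stood at the background limit. The difference was -0.55 (SE 0.11, 95% interval -0.81 to -0.29), with a limma adjusted p of 0.127, which did not pass.

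KCNQ1, the pore of the slow delayed rectifier of the mammalian heart, went the other way. It had 4.45, 4.33 and 4.30 in male pools and 4.03, 4.09 and 4.08 in female pools, so that all male pools lay above the limit and all female pools below it. The difference was 0.29 (SE 0.07, limma adjusted p = 0.233), and its 2 dimmer probe sets, both below the limit, gave 0.13 and 0.06.

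CACNG4 and CACNA1B were the other genes with an unadjusted p under 0.05. CACNG4, which in mammals accompanies AMPA receptors, had 8.67, 8.43 and 8.53 in male pools and 8.76, 8.91 and 8.84 in female pools. CACNA1B, the pore of the N-type channel of presynaptic terminals, had 6.90, 6.69 and 6.69 in male pools and 6.97, 7.11 and 7.03 in female pools. In both genes every male pool lay below every female pool. The differences were -0.29 (SE 0.09, limma adjusted p = 0.307) for CACNG4 and -0.28 (SE 0.09, limma adjusted p = 0.333) for CACNA1B. The other CACNA1B probe set, above background as well, had 5.52, 5.37 and 5.78 in male pools and 5.52, 5.41 and 5.51 in female pools. Its sexes overlapped, with a difference of 0.07, and the average of both probe sets differed by -0.10. The neuron list, with 11 of its 12 genes on the array above background, had a median difference of -0.16, ranging from -0.45 for TUBB3 to 0.19 for SYP, and a log2 summed signal of 14.24 to 14.41 in male and 14.38 to 14.64 in female pools. The median was -0.12 for the neural progenitor list and 0.16 for the red blood cell list. Over the other lists of cell type markers it ran from -0.03 for endothelium to 0.05 for striated and heart muscle. The part of neuron or other cell content in these differences was not tested.

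**Figure D3:**
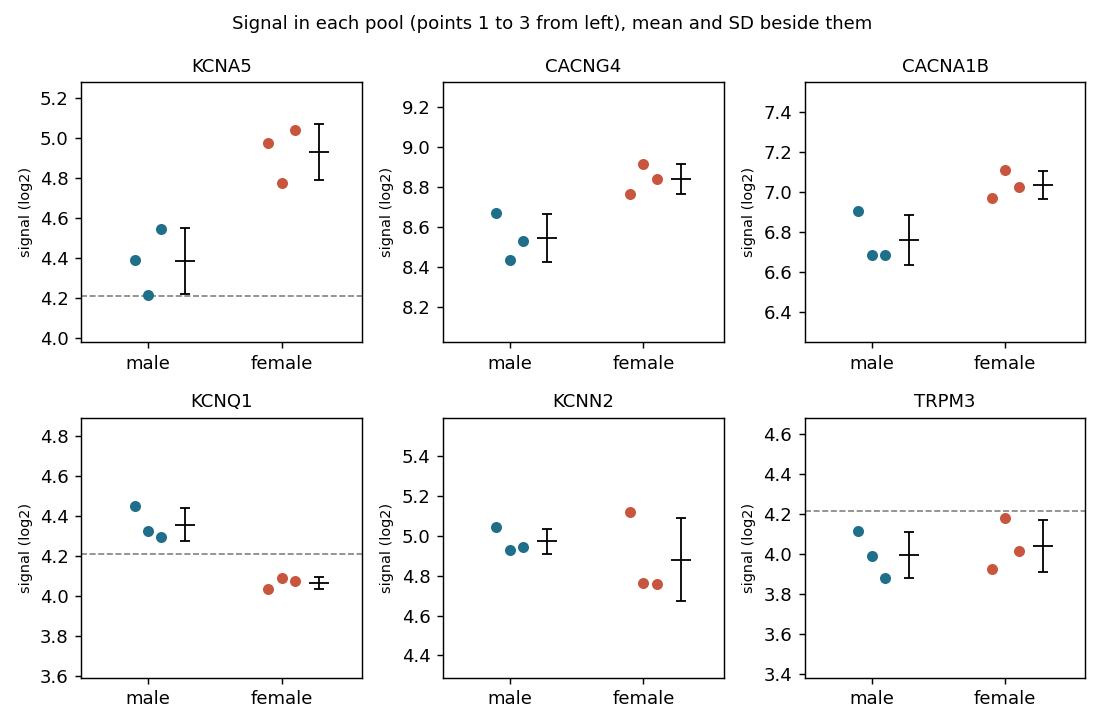
Signal (log2, vertical axes of equal span) of 6 ion channel genes in each male and female pool (points), with the mean and SD of 3 pools beside them and the viral limit of 4.21 dashed where it falls in the panel. Male and female pools do not overlap for KCNA5, CACNG4, CACNA1B and KCNQ1, and they overlap for the Z-linked KCNN2 and TRPM3.

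The Z-linked members were KCNN2 and TRPM3. KCNN2 encodes a small-conductance potassium channel that follows calcium entry, and had 5.04, 4.93 and 4.94 in male pools and 5.12, 4.76 and 4.76 in female pools. Female pool 1 was the highest of all, so the sexes overlapped. Its difference was 0.09 (95% interval -0.17 to 0.35, limma adjusted p = 0.824), an interval that holds both 0 and the median of 0.30 over 460 Z genes above background. TRPM3, a heat- and steroid-sensitive cation channel in mammals, had 4.11, 3.99 and 3.88 in male pools and 3.92, 4.18 and 4.01 in female pools, all below the limit.

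The remaining genes with the smallest p below 0 were mostly voltage-gated potassium channels. KCNC1, which lets neurons fire fast, had 5.75, 6.06 and 5.57 in male pools and 6.11, 5.96 and 6.19 in female pools. KCND2, an A-type channel of dendrites, had 6.72, 6.57 and 6.27 in male pools and 6.91, 7.01 and 6.57 in female pools. KCNA2, an axonal delayed rectifier, had 6.61, 6.34 and 6.68 in male pools and 6.65, 6.74 and 7.10 in female pools. The sexes overlapped in each, and the differences were -0.29, -0.31 and -0.28 (limma adjusted p of 0.499 to 0.549). Without male pool 3 the differences were -0.18 for KCNC1 and -0.18 for KCND2, and for KCNA2 the difference was -0.18 without male pool 2 and -0.15 without female pool 3. The dimmer KCNC1 probe set, also above background, had 5.27, 5.39 and 5.05 in male pools and 5.64, 5.77 and 5.52 in female pools. There every male pool lay below every female pool, and the difference of -0.40 did not pass (limma adjusted p = 0.268). KCNK5, an alkaline-activated leak channel, had 5.21, 5.34 and 5.10 in male pools and 5.41, 5.32 and 5.43 in female pools, a difference of -0.17. SCNN1G, an epithelial sodium channel subunit, had 5.43, 5.20 and 5.70 in male pools and 5.54, 5.73 and 6.06 in female pools, a difference of -0.33. KCNK5 and SCNN1G both overlapped between the sexes, with limma adjusted p of 0.543 and 0.545. The second SCNN1G probe set above background, with a mean of 5.35, gave 0.06.

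On the positive side, TRPC4, a cation channel opened downstream of receptors that activate phospholipase C, had 5.14, 5.34 and 5.06 in male pools and 4.93, 5.06 and 4.87 in female pools, a difference of 0.23 (limma adjusted p = 0.483). Its second probe set above background, with a mean of 4.89, gave -0.06. KCNK2, a leak channel opened by stretch, had 8.07, 7.95 and 8.15 in male pools and 7.85, 7.99 and 7.79 in female pools, a difference of 0.18. KCNN1, a relative of KCNN2, had 5.57, 5.71 and 5.78 in male pools and 5.62, 5.49 and 5.49 in female pools, a difference of 0.15. The sexes overlapped in all 3 genes. Among the rectifiers, KCNJ12 had 4.56, 4.52 and 4.78 in male pools and 4.39, 4.36 and 4.57 in female pools, a difference of 0.17, while its second probe set above background gave -0.09. KCNJ6 had 4.48, 4.36 and 4.58 in male pools and 4.11, 4.34 and 4.43 in female pools, a difference of 0.18. KCNJ5 had 7.61, 7.53 and 7.63 in male pools and 7.53, 7.39 and 7.47 in female pools, a difference of 0.13. The sexes overlapped in each of these rectifiers, with limma adjusted p of 0.591 to 0.609.

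The leading genes of the remaining families all had 95% intervals that held 0. KCNMA1, the large-conductance channel gated by calcium and voltage, had 5.83, 5.85 and 5.19 in male pools and 5.95, 6.04 and 5.69 in female pools, with pool 3 the lowest in each sex. Its difference was -0.27 (95% interval -0.70 to 0.16), and it was -0.06 without male pool 3. The dimmer KCNMA1 probe sets above background gave 0.01 and -0.17. TRPC1, a subunit of receptor-operated cation channels, had 7.56, 7.64 and 7.37 in male pools and 7.69, 7.70 and 7.65 in female pools. TRPM2, a channel opened by ADP-ribose, had 5.82, 5.72 and 5.65 in male pools and 5.62, 5.65 and 5.64 in female pools. Every male pool lay below every female pool for TRPC1, at -0.16 (-0.36 to 0.05), and above every female pool for TRPM2, at 0.09 (-0.08 to 0.26). The dimmer TRPC1 probe sets gave -0.17, -0.23 and -0.26, the last of them below background. The male pools lay below the female pools in each, and none passed (limma adjusted p of 0.490, 0.376 and 0.305). TRPV2 had 5.21, 5.23 and 5.38 in male pools and 5.24, 5.12 and 5.20 in female pools. KCNS1 had 6.62, 6.80 and 6.69 in male pools and 6.48, 6.69 and 6.91 in female pools. The sexes overlapped in both, with differences of 0.08 (-0.10 to 0.26) for TRPV2 and 0.01 (-0.26 to 0.28) for KCNS1. TRPC4AP had 7.49, 7.45 and 7.62 in male pools and 7.58, 7.55 and 7.43 in female pools, an overlap with a difference of 0.00 (-0.19 to 0.19), and SCN8A differed by -0.07 (-0.38 to 0.24). CLCN6 gave -0.18, HCN4 0.11, KCNAB1 -0.14 and SCN3B 0.12, and none of these passed (limma adjusted p of 0.589 to 0.705). The dimmer SCN3B probe sets, both above background, gave -0.05 and 0.29, and neither passed (limma adjusted p of 0.874 and 0.425).

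**Figure D4:**
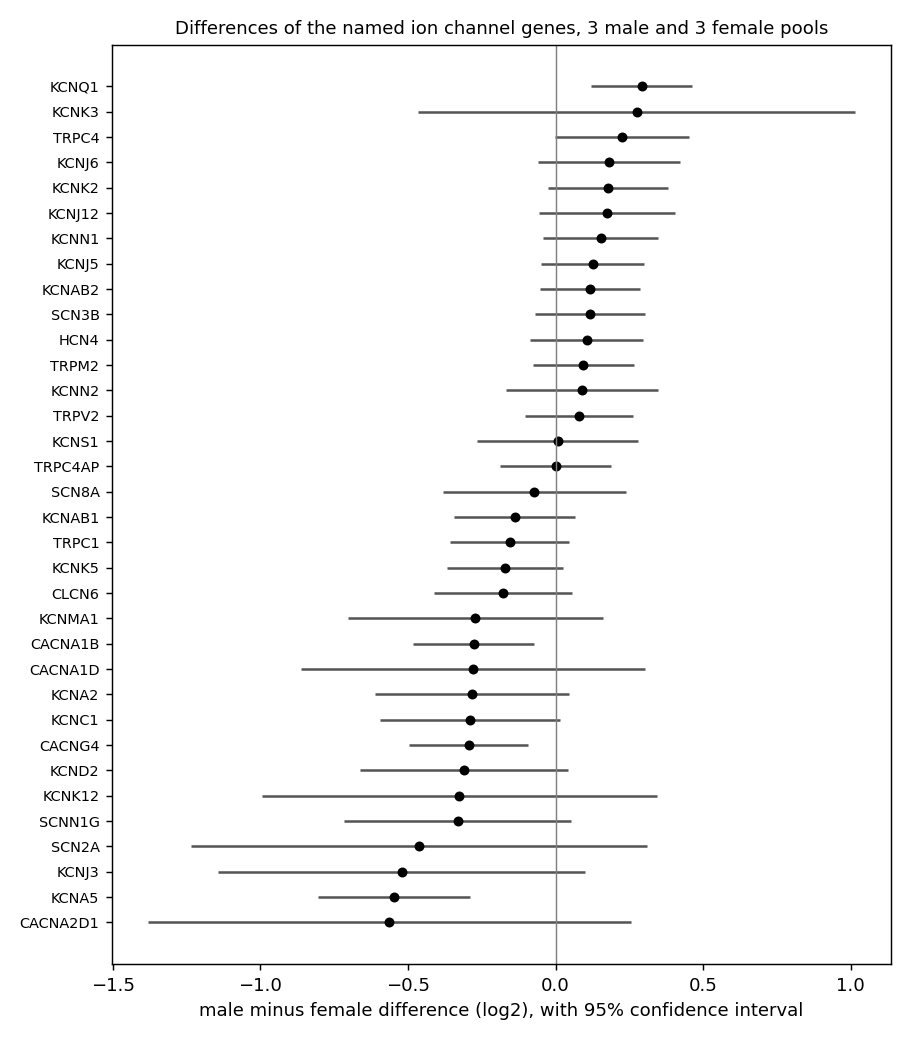
Male minus female difference (log2, horizontal axis) of 34 named ion channel genes, with points for the estimate and lines for the 95% confidence interval over 3 male and 3 female pools. The intervals of KCNA5, CACNG4 and CACNA1B lie wholly below 0 and that of KCNQ1 wholly above it, and none of the 34 genes passed after adjustment.

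Some channel genes varied more between pools of a sex than between the sexes. In 6 of the 92 genes above background (6.52%) the 6 pools spanned more than 1 log2 unit, against 4.92% of all genes above background, and these 6 were chosen with their values in view. SCN2A, the main sodium channel of young mammalian axons, had 6.27, 6.35 and 5.13 in male pools and 6.42, 6.74 and 5.98 in female pools. CACNA2D1, which carries calcium channels to the surface, had 6.67, 7.18 and 5.61 in male pools and 7.17, 7.15 and 6.82 in female pools. CACNA1D, an L-type pore that opens at low voltage, had 4.80, 5.16 and 4.36 in male pools and 5.50, 4.98 and 4.67 in female pools. Male pool 3 was the lowest of all pools in each of these genes, and the other 3 CACNA2D1 probe sets were lowest there too. Female pool 3 was the lowest female pool in each of these genes as well. Without male pool 3 the differences of the brightest probe sets were -0.07 for SCN2A, -0.13 for CACNA2D1 and -0.07 for CACNA1D. With it they were -0.46, -0.56 and -0.28. The other SCN2A probe sets above background gave -0.24, -0.18 and -0.31. In those at -0.24 and -0.31 every male pool lay below every female pool, and neither passed (limma adjusted p of 0.459 and 0.333).

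KCNJ3, a subunit of G protein-gated rectifiers, had 5.23, 4.73 and 4.43 in male pools and 4.85, 5.32 and 5.79 in female pools. Male pool 3 was again the lowest of all, and female pool 3 was the highest. Its second probe set, above background as well, lay between 4.66 and 5.14 in all pools. KCNK12, a leak channel, had 4.86, 4.64 and 4.65 in male pools and 5.75, 4.44 and 4.93 in female pools. Female pool 1 stood highest, and without it the difference was 0.03, against -0.33 with it. KCNK3, an acid-sensitive leak channel, had 6.93, 6.59 and 6.07 in male pools and 6.92, 6.10 and 5.75 in female pools, with pool 1 the highest and pool 3 the lowest in each sex. Its difference ranged from 0.02 to 0.61 as single pools were left out.

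**Figure D5:**
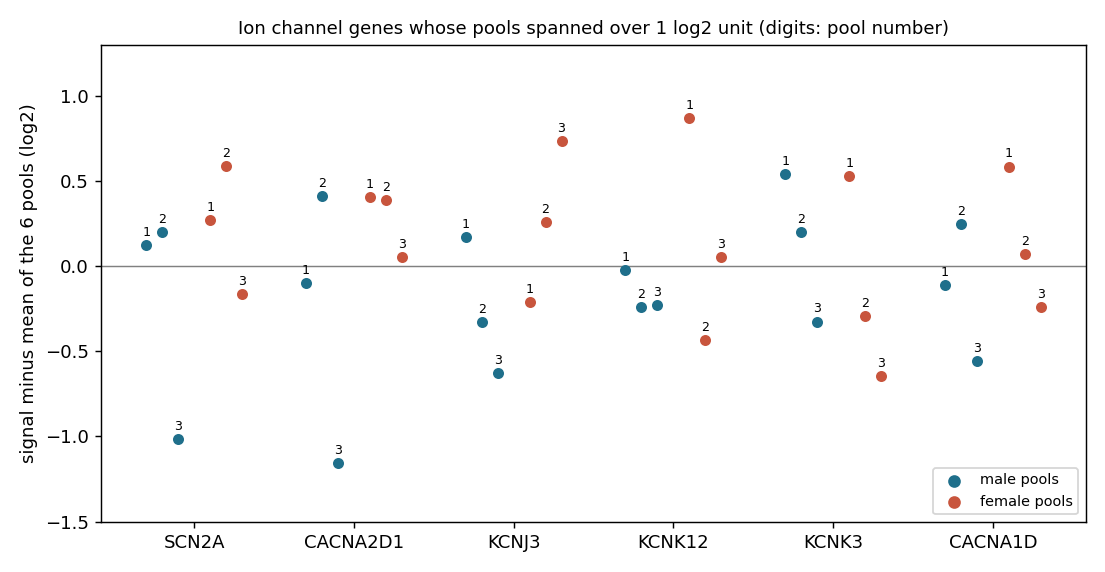
Signal of each pool minus the mean of the 6 pools (log2, vertical axis) for the 6 ion channel genes whose pools spanned over 1 log2 unit, with male pools left of female pools and pool numbers above the points. Male pool 3 is the lowest point for SCN2A, CACNA2D1, CACNA1D and KCNJ3, and female pool 1 the highest for KCNK12. Female pool 3 is the lowest female point for SCN2A, CACNA2D1 and CACNA1D and the highest for KCNJ3.

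Probe sets of the same gene did not always give the same sign. Of 39 channel genes with at least 2 probe sets above background, 19 had differences of both signs. No share over all genes stands beside this count, so it cannot be read as high or low. In KCNAB2 the brightest probe set had 8.67, 8.51 and 8.55 in male pools and 8.44, 8.48 and 8.45 in female pools (difference 0.12). Its next probe set had 7.89, 7.67 and 7.97 in male pools and 8.17, 8.27 and 8.29 in female pools (difference -0.40). The sexes did not overlap in either probe set, and the directions were opposite. The dimmest probe set gave -0.37, and the remaining probe set 0.10. KCNRG, a cytoplasmic regulator of potassium channels, gave -0.28 and 0.43. KCNK2 gave 0.18, -0.22 and 0.01 in its 3 probe sets above background. Among the 141 dimmer probe sets of channel genes 0 passed in limma after adjustment (0.240% and 0.0706% of all dimmer probe sets were higher and lower in males). At an unadjusted p under 0.05 in limma there were 4 higher in males (2.84%, against 4.18% of all dimmer probe sets). There were 9 lower (6.38%, against 4.88% of all dimmer probe sets). Every male pool lay below every female pool in 14 of the 141 (9.93%) and above in 7 (4.96%). No share over all dimmer probe sets stands beside these counts of pools that do not overlap, so they cannot be read as high or low.

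Genes that anchor, carry or modulate channels, or form other channels, also had none past the threshold. Of 56 listed 45 were on the array and 30 above background, and 0 passed in either direction (limma, where 0.815% of all genes were higher and 0.108% lower in males), with 2 higher (7.20% of all genes) and 2 lower (5.45% of all genes) in males at an unadjusted p under 0.05. Of the 30 above background 23 had a difference below 0, with a median of -0.08. Among channel genes above background 53 of 92 lay below 0, with a median of -0.01. Over all genes above background 4938 of 10603 did, with a median of 0.01. NEDD4L, a ubiquitin ligase that removes channels from the membrane, had the smallest p, with 8.85, 8.85 and 8.96 in male pools and 8.38, 8.47 and 8.52 in female pools. The sexes did not overlap, males being higher, with a difference of 0.43 (SE 0.08, limma adjusted p = 0.0770). It was the only partner gene that RefSeq placed on a sex chromosome, the W, which male birds lack. The signal in male pools therefore cannot come from a W copy, and which copy or copies the probe set reads in females was not tested. OSTM1, the partner of CLCN7 in lysosomes, had 8.40, 7.92 and 7.84 in male pools and 8.79, 8.59 and 8.44 in female pools. FGF14, which binds sodium channels at the axon initial segment, had 5.54, 6.01 and 5.61 in male pools and 6.14, 6.14 and 6.03 in female pools. In both genes every male pool lay below every female pool, and the differences of -0.55 and -0.39 did not pass (limma adjusted p of 0.304 and 0.349). The calcium channel regulator RRAD, below background in both sexes, gave 0.26.

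Channel genes have long gene bodies. The median genomic span was 33.1 kb for the 90 channel genes above background with a known span, against 16.4 kb for autosomal genes above background (spans from RefSeq, assembly GRCg7b). Across those 90 genes, which share the same 6 arrays, Spearman's rho between span and the male minus female difference was -0.15, and across the 9984 autosomal genes it was -0.35. The part of span in the differences was not tested.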

How the data were processed

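RNA of 3 male and 3 female brain pools was measured on 1 Affymetrix array each. The deposited values are log2 expression values made with RMA from affy, per the submitters' processing notes, with versions not given in the sources used here. They ran from 2.28 to 14.1, with array medians of 4.84 to 4.87, and were used unscaled. RMA gives no detection call, so background was read from 689 viral and other non-chicken probe sets. These and 153 control probe sets were left out of the test.

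The 37693 chicken probe sets were compared as male minus female in limma 3.58.1 (R 4.3.3), two-sided, with sex as the only term, Benjamini-Hochberg adjustment over all of them and a threshold of 0.05. SE and intervals are those of the moderated fit, and SD is the spread of 3 pools. P-values measure the spread between pools of several embryos. Arrays give no depth of reads, so precision is limited by their number. The code was tested on simulated data. There it called 9 of 50 probe sets changed by 0.5 log2 units and 43 of 50 changed by 1. Differences near 0.5 would thus mostly go uncalled with 3 pools per sex.

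Symbols came from the platform annotation, and 125 of 127 members matched RefSeq by gene identifier. Members and lists were chosen with earlier results of these data known. Pool values are given for the 8 genes of smallest p in each direction among genes above background, the brightest of each family and Z-linked genes. Other names were chosen after their values were seen. Alternatives covered single pools, both pools numbered 3, a replicate block, limma's spread settings, array weights, a dim filter, centring and probe set choice. Same-numbered pools deviated with r of 0.02, 0.16 and 0.36. Male pools 2 and 3 correlated most with the female pool of their own number, and male pool 1 did not. Numbers were therefore not taken to pair the pools, and the labels do not say whether same-numbered pools shared a batch.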

Additional observations from a re-analysis of the deposited data

How the results depend on the processing

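Under the alternatives tried, no channel gene rose or fell in males past the threshold, with 1 exception: with the replicate block, which the numbering does not establish as a true pairing, 1 was lower. It was KCNA5, at -0.55 and a limma adjusted p of 0.0465, while its adjusted p over the alternatives ran up to 0.357; all probe sets past the threshold then numbered 245. No channel partner gene passed in any alternative. Of 442 values for 34 named genes 431 kept their sign and their side of the threshold, and 10 changed sign. These were KCNS1 (left-out pools: -0.10 to 0.12), SCN8A (-0.21 to 0.0509), TRPC4AP (-0.0478 to 0.0349) and KCNK12 (-0.63 to 0.0263), TRPC4AP without both pools numbered 3 (-0.0921) and with array weights (-0.0016), and, with all probe sets averaged, KCNAB2 (-0.14) and KCNK2 (-0.0195). All probe sets past the threshold numbered 209, 113 to 161 with single pools left out and 52 without both pools numbered 3. The channel median of -0.01 was -0.0349 (without female pool 3) to 0.0143 (without female pool 2) with single pools left out, -0.0294 without both pools numbered 3 and 0.0184 on centred arrays. Channel genes above background numbered 92, but 61 at the viral 99th percentile and 91 to 93 with single pools left out. Genes with every male pool above every female pool numbered 6, with 10 on centred arrays and 11 to 15 with single pools left out; those with every male pool below numbered 5, with 3 and 9 to 17. Fewer pools overlap less by construction. No share over all genes stands beside the counts with pools left out, so they cannot be read as high or low. For the other changes the cause was not tested. Signals near 4.21 limit what can be said of dim genes.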

Other observations

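Channel genes known mainly from skeletal muscle were among those above background by their brightest probe set. The dimmer probe sets of SCN4A (means of 3.87 and 3.50), CLCN1 (3.90 and 3.50) and CACNA1S (3.96, 3.42 and 2.96) all lay below the limit of 4.21. SCN4A, the sodium channel of muscle fibres, had 4.97 to 5.11 in male pools and 4.95 to 5.04 in female pools. CLCN1, the muscle chloride channel, had 5.66 to 5.87 in male pools and 5.78 to 5.93 in female pools. CACNA1S, the voltage sensor of muscle contraction, had 5.16 to 5.59 in male pools and 5.24 to 5.40 in female pools, and CACNG1, its partner subunit, 4.55 to 4.72 in male pools and 4.44 to 4.64 in female pools. Of 11 muscle markers 6 were above background (ACTC1, DES, MYOG, TNNI2, TNNT3 and TTN), and the log2 summed signal of all 11 was 8.10 to 8.12 in male and 7.97 to 8.05 in female pools. The markers ACTA1, MYH7, MYL1, MYOD1 and TNNT2 were below it. At the stricter limit of 4.98, the viral 99th percentile, CACNG1 no longer counted as above background, while SCN4A, CLCN1 and CACNA1S did.

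Neuron and progenitor markers were above background in 11 of 12 and 10 of 10 genes on the array, the exception being GAP43 with a mean signal of 4.16. NES, which encodes the progenitor filament nestin, was the only marker of the 11 lists that passed between the sexes, at -0.55 (limma adjusted p = 0.0380, n = 3 pools per sex). Over all 13008 genes 0.108% were lower in males at this threshold. In the progenitor list HES5 (0.17) and HES6 (0.24) lay above 0 and the other genes below it, with a median of -0.12. The log2 summed signal of that list overlapped between the sexes, at 14.13 to 14.20 in male and 14.13 to 14.28 in female pools.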
